A study of Mus musculus with 4 samples.

Results

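The Tnrc18 and Bahcc1 loci of the mouse genome were examined for integration of an HIV-based vector directed by TAF3. Every distinct integration position in mm9 chr5:143450001-143600000, named here the Tnrc18 locus, and in mm9 chr11:120000001-120170000, named here the Bahcc1 locus, was taken. These were 273 of the 122029 positions in the series, 120 at Tnrc18 and 153 at Bahcc1. The loci were chosen by their high site counts in these libraries, so the counts below describe them and support nothing. No mm9 annotation was used, so the bounds are those of the selection, the start and end of each gene within them were not placed, and the gene labels could not be checked against the positions.

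Tnrc18 and Bahcc1 encode large paralogous nuclear proteins that end in a BAH domain, a fold that binds methylated histone tails. Both are known as chromatin readers that act in gene silencing. TAF3 is a subunit of TFIID, the general factor that helps RNA polymerase II start at promoters, and its PHD finger binds histone H3 trimethylated on the lysine that marks active promoters. LEDGF/p75, the product of Psip1, is the host protein that tethers HIV integrase to chromatin. HIT-seq uses this: a protein fused to the integrase-binding domain (IBD) of LEDGF directs the vector to where it sits, and the integration positions mark those places.

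All 4 groups were mouse embryonic fibroblasts (MEF-KO cells, strain C57BL/6, Psip1 (-/-)) that received by nucleofection a plasmid for a TAF3-LEDGF-IBD fusion, recovered for 24 to 36 h and were sorted for GFP. They were then infected with 500 ng of VSV-G pseudotyped pNLNgoMIVR-Emod Luc with 8 μg/mL polybrene and harvested after 48 to 72 h. The fusions were full-length TAF3 without a mutation (Full WT), full-length TAF3 with M880A (Full M880A), the PHD domain alone (PHD WT) and the PHD domain with M880A (PHD M880A). The fusion came from a plasmid and not from the cells' own gene, and the labels name a single cell line, E2, with no word on whether it is 1 clone. Each group was 1 library: the differences lack a replicate check, and p-values are not given. Intervals are 95% intervals that cover counting error only. The lists had 25363 positions in PHD WT, 22486 in Full WT, 39292 in Full M880A and 34888 in PHD M880A, so levels are given as sites per 10000 sites of the library. By their read names, Full WT ran alone on 1 flow cell, while the remaining 3 libraries ran together on another, so flow cell and protein cannot be told apart in comparisons with Full WT.

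In the RefSeq gene order of GRCm38.p6, a later build used for names and order only, the protein-coding genes next to Tnrc18 were Slc29a4 on one side and Fbxl18, Actb and Fscn1 on the other. Next to Bahcc1 were Slc38a10 on one side and Actg1 and Fscn2 on the other. Actb and Actg1 encode the cytoplasmic actins, and Fscn1 and Fscn2 encode the actin-bundling fascins, so these gene pairs stand near each other at both places. The 250 bases before the RefSeq start of each gene are shown because TAF3 and its PHD finger are known from promoters. Capitals mark CpG dinucleotides, which are dense in promoters that carry trimethylated H3. Coordinates are GRCm38.p6 and were not set against the mm9 positions: Tnrc18 lies on the minus strand with these bases at chr5:142817663-142817912, and Bahcc1 on the plus strand with these bases at chr11:120232697-120232946.
Tnrc18: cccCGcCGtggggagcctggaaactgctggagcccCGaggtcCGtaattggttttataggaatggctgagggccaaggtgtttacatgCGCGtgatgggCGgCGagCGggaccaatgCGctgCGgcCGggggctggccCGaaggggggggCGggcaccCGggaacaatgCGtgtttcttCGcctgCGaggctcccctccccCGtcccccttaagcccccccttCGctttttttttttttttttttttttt
Bahcc1: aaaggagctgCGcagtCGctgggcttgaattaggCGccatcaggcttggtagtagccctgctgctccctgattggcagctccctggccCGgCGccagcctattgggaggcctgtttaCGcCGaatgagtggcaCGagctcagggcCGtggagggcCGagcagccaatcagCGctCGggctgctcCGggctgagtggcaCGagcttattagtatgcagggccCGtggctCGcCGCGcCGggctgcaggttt

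Both upstream stretches were rich in CpG. The Tnrc18 stretch had 20 CpG and 61.6% G or C, and the Bahcc1 stretch 19 CpG and 65.2%, where the medians over 32841 RefSeq promoter stretches of the same length were 6.00 CpG and 52.4%. Of those stretches, 82.0% had fewer CpG than Tnrc18 and 80.3% fewer than Bahcc1. Searched on both strands, TATAAA was found 1 time before Tnrc18 and 0 times before Bahcc1, and 12.4% of all stretches held it. CCAAT was found 2 and 3 times, and 33.9% of stretches held it. GGGCGG was found 2 times before Tnrc18 and 0 times before Bahcc1, and 32.7% held it. The Tnrc18 stretch ended in a run of 24 T, against a longest run of 3 T before Bahcc1. Whether any integration position fell in these stretches was not analysed here.

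At the Tnrc18 locus, 3 of the 4 libraries stood at like levels and PHD M880A was low. PHD WT had 36 sites, or 14.2 per 10000 (10.3 to 19.6), and Full WT had 32, or 14.2 per 10000 (10.1 to 20.1). Full M880A had 45 sites, or 11.5 per 10000 (8.56 to 15.3). PHD M880A had 7 sites, or 2.01 per 10000 (0.972 to 4.14), and its interval did not reach those of the other 3 libraries. The Bahcc1 locus had more sites, and PHD M880A was again the lowest library. PHD WT had 49 sites, or 19.3 per 10000 (14.6 to 25.5), Full WT 40, or 17.8 (13.1 to 24.2), and Full M880A 52, or 13.2 (10.1 to 17.3). PHD M880A had 12 sites there, or 3.44 per 10000 (1.97 to 6.01), again below the intervals of the others. The intervals of PHD WT, Full WT and Full M880A overlapped at both loci.

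The site density at Tnrc18, over the library's mean density between the outermost sites of each chromosome, was 24.3 times in PHD WT, 24.4 in Full WT, 19.6 in Full M880A and 3.44 in PHD M880A. At Bahcc1 it was 29.2, 26.9, 20.0 and 5.20 times in the same order. Among 17159 windows of the length of the Tnrc18 locus, the locus ranked 10 by PHD WT sites, 9 by Full WT, 4 by Full M880A and 317 by PHD M880A. Among 15142 windows of the length of the Bahcc1 locus, that locus ranked 3, 4, 6 and 40. All 4 levels were thus above the library means, and the ranks were lowest in PHD M880A. Just outside the bounds, the 50 kb before the Tnrc18 locus held 0 sites and the 50 kb after it 3, against 114 in its last 50 kb. The 50 kb before the Bahcc1 locus held 6 sites against 51 in its first 50 kb, and the 50 kb after it held 58 against 9 in its last. Those 58 sites were 10 in PHD WT, 19 in Full WT, 17 in Full M880A and 12 in PHD M880A.

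The sites were not spread along the loci. When sites of all 4 libraries with gaps of at most 1000 bp were joined, and groups of at least 5 sites were called a block, each locus had 2 blocks. This definition was chosen after the positions had been seen. Tnrc18 block 1 (chr5:143572537-143578909) held 79 sites and Tnrc18 block 2 (chr5:143580198-143584410) held 31. Together they took 7.06% of the length of the locus and 91.7% of its sites. Bahcc1 block 1 (chr11:120046453-120050918) held 59 sites and Bahcc1 block 2 (chr11:120091193-120099460) held 70, together 84.3% of the sites on 7.49% of the length. The Tnrc18 blocks lay side by side with 1288 bp between them that held no site of any library. The Bahcc1 blocks were 40.3 kb apart, and this stretch held 5 sites, of which 1 was in Full WT, 2 were in Full M880A and 2 in PHD M880A.

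**Figure D1:**
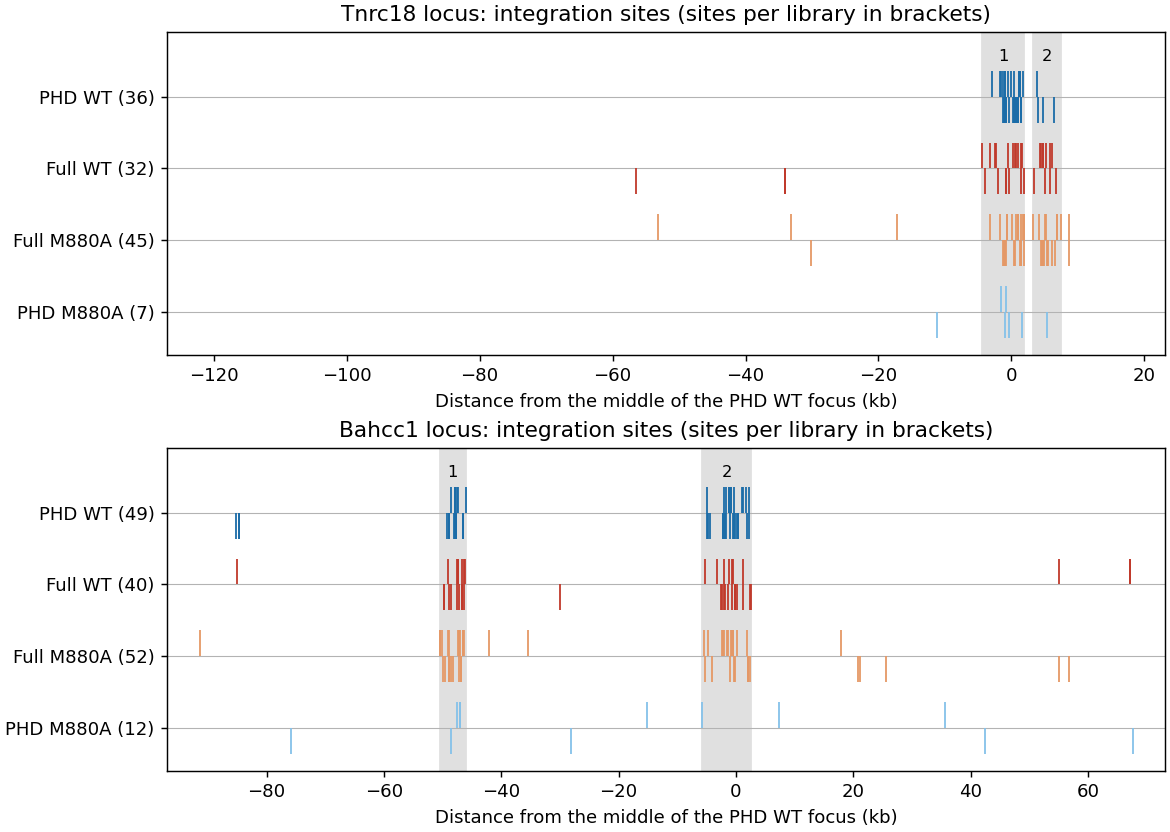
Integration sites at the Tnrc18 locus (top) and the Bahcc1 locus (bottom), 1 row per library, by distance in kb from the middle of the PHD WT focus; lines above a row are plus-strand sites and lines below it minus-strand sites, and grey bands are blocks 1 and 2. The Tnrc18 blocks lie next to each other and hold 110 of 120 sites, and the Bahcc1 blocks lie 40.3 kb apart and hold 129 of 153.

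In windows of 1 kb, 130 of the 150 windows of the Tnrc18 locus were empty in all libraries, as were 136 of the 170 of the Bahcc1 locus. At least 5 sites over the 4 libraries stood in 7 Tnrc18 windows, which held 97 of the 120 sites, and in 11 Bahcc1 windows, which held 120 of the 153. The fullest window at each locus had 22 sites, from 143578001 at Tnrc18 and from 120049001 at Bahcc1. PHD WT sites filled 8 windows of Tnrc18 and 13 of Bahcc1, Full WT 12 and 16, Full M880A 15 and 22, and PHD M880A 5 and 10. A PHD M880A window never held more than 3 sites, against up to 10 in PHD WT, 9 in Full M880A and 6 in Full WT.

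At Tnrc18 the PHD WT sites stood in 4 windows in a row. The windows from 143575001, 143576001, 143577001 and 143578001 held 7, 7, 10 and 7 PHD WT sites. Full WT had 0, 4, 3 and 5 there, Full M880A 5, 3, 6 and 9, and PHD M880A 1, 3, 0 and 1. Full WT also had sites on both sides of these windows, and Full M880A mainly on the upper side. In the 3 windows below, from 143572001, Full WT had 2, 1 and 3 sites, PHD WT had 0, 0 and 1, and Full M880A had 0, 1 and 0. In the 3 windows from 143581001, in block 2, Full WT had 4, 4 and 2 sites and Full M880A had 6, 3 and 4. PHD WT had 1, 0 and 1 in these windows, and PHD M880A 0, 1 and 0.

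In Bahcc1 block 1, the windows from 120047001 to 120051000 held 2, 4, 8 and 3 PHD WT sites, 4, 1, 5 and 6 Full WT sites, and 4, 3, 6 and 5 Full M880A sites. PHD M880A had 0, 1, 3 and 0. The window below, from 120046001, held 4 sites, all Full M880A. In block 2, the 6 windows from 120094001 to 120100000 held 4, 6, 6, 3, 4 and 2 PHD WT sites, 5, 2, 5, 1, 2 and 2 Full WT sites, and 3, 3, 6, 1, 2 and 2 Full M880A sites. No PHD M880A site lay in these 6 windows.

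**Figure D2:**
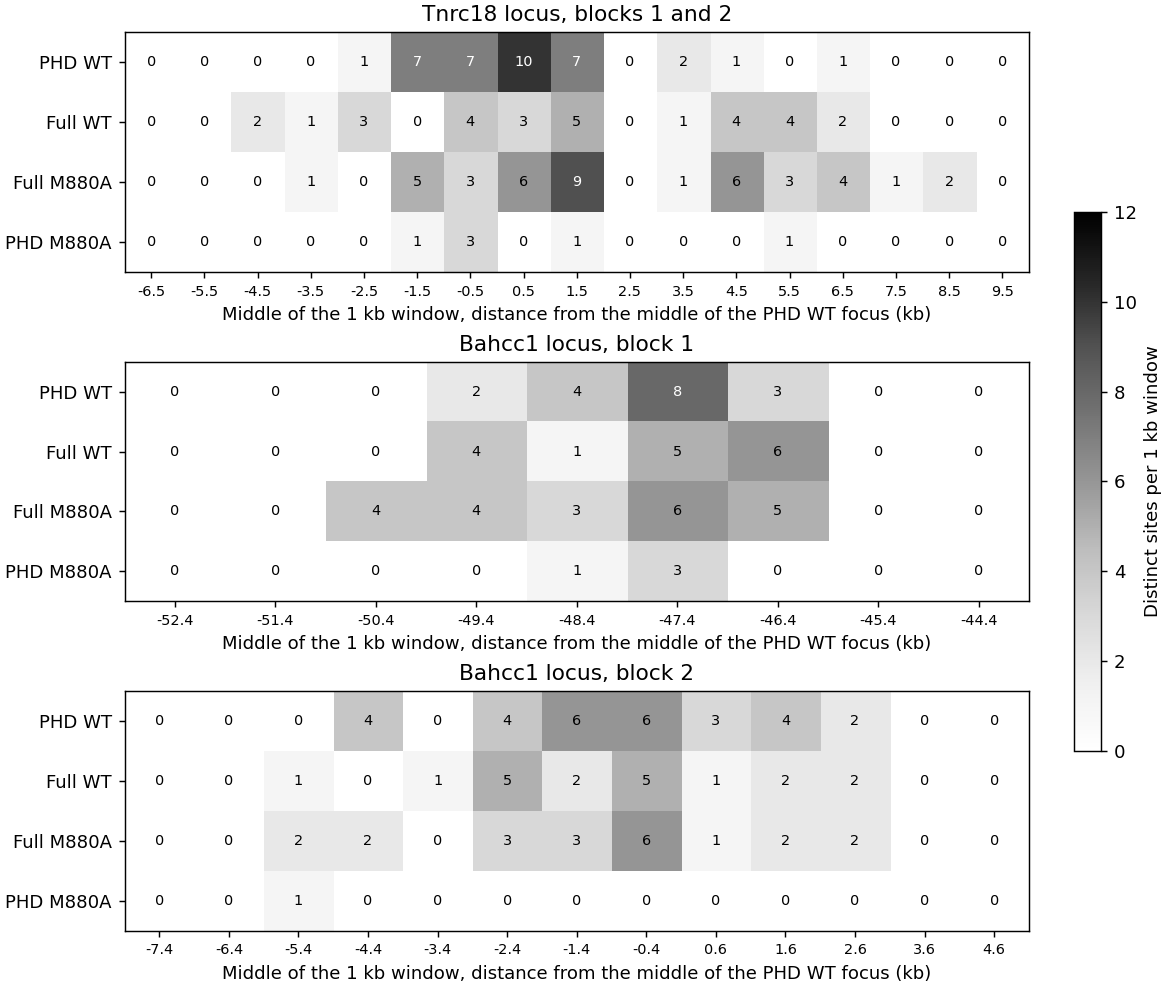
Distinct sites per library (rows) in windows of 1 kb (columns, by distance in kb of the window's middle from the middle of the PHD WT focus) for the Tnrc18 blocks and each Bahcc1 block; darker cells hold more sites, and the number is printed in each cell. PHD WT fills 4 windows at Tnrc18 with 7 to 10 sites each, and PHD M880A has at most 3 sites in a window.

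A focus was also called from PHD WT alone (5 or more sites, none over 1000 bp from the next). PHD WT had 1 such focus at Tnrc18, chr5:143575291-143578643, with 31 of its 36 sites. At Bahcc1 it had 2, chr11:120047667-120050918 with 17 sites and the fuller one, chr11:120094644-120099197, with 25 of its 49. PHD WT set these bounds, so its own shares are no result. Of the Tnrc18 sites, 34.4% (20.4 to 51.7) of Full WT, 42.2% (29.0 to 56.7) of Full M880A and 71.4% (35.9 to 91.8) of PHD M880A lay in the PHD WT focus, which took 2.24% of the locus. Of the Bahcc1 sites, 32.5% (20.1 to 48.0) of Full WT, 28.8% (18.3 to 42.3) of Full M880A and 0 of the 12 PHD M880A sites (up to 24.2%) lay in the fuller PHD WT focus, on 2.68% of the locus. The PHD M880A share at Tnrc18 was 5 of 7 sites. When only sites with at least 10 reads were used it was 25.0% (4.56 to 69.9), but for a focus with other bounds. Within the bounds given here, the PHD M880A sites with at least 10 reads were 143576174 and 143578537. Those outside them were 143565819 and 143582299.

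By the same rule, Full WT had 3 foci of its own at Tnrc18, with 6, 12 and 11 sites, and Full M880A had 2, with 23 and 15. At Bahcc1 each had 2, with 16 and 16 sites in Full WT and 22 and 13 in Full M880A. PHD M880A had 0 foci at either locus. A PHD WT site lay within 1 kb of 27 of the 32 Full WT sites, 38 of the 45 Full M880A sites and 6 of the 7 PHD M880A sites at Tnrc18. At Bahcc1 these were 35 of 40, 41 of 52 and 5 of 12. The same shares over all sites of each library are not given here. The loci were chosen by high site counts, PHD WT among them, so nearness to a PHD WT site supports nothing. The median distance to the nearest PHD WT site was 279 bp in Full WT, 148 bp in Full M880A and 97.0 bp in PHD M880A at Tnrc18. At Bahcc1 it was 108, 154 and 7028 bp. By these medians PHD M880A, with only 7 and 12 sites, was the nearest library at Tnrc18 and the farthest at Bahcc1. Among its Tnrc18 sites, 143576070 had 2 reads and was also a PHD WT position.

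The PHD domain with and without M880A was compared first, to ask how far these loci lost sites with the substitution. At Tnrc18 the share of sites was 7.07 times higher in PHD WT than in PHD M880A (3.10 to 18.8), and at Bahcc1 5.62 times (2.94 to 11.6). Of 1313 windows of the length of the Tnrc18 locus with at least 10 sites over the pair, 58.0% were at least 2-fold higher in PHD WT (with 0.5 added to each count), and 2.82% were at least 2-fold lower. With 0.5 added in the same way, Tnrc18 stood at 6.69. The median ratio was 2.29, and 7.39% of these windows had a higher ratio than Tnrc18. For the length of Bahcc1 the 2-fold shares were 53.6% and 3.64% of 1400 windows, and the median ratio was 2.16. Bahcc1 stood at 5.45 with 0.5 added, and 126 windows had a higher ratio. Both loci were at least 2-fold higher in PHD WT, as were most windows of their length with at least 10 sites over the pair. Windows with fewer sites were not compared.

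By block, the ratio was 8.80 (3.40 to 28.9) in Tnrc18 block 1, with 32 and 5 sites, and 5.85 (1.91 to 23.9) in Bahcc1 block 1, with 17 and 4. In Bahcc1 block 2 there were 29 PHD WT sites and 1 PHD M880A site, a ratio of 39.9 (6.61 to 1629). In Tnrc18 block 2 there were 4 and 1 (5.50, 0.544 to 271), too few to show a difference at this depth. Outside the blocks PHD WT had 0 sites at Tnrc18 and 3 at Bahcc1, and PHD M880A 1 and 7. The Bahcc1 ratio outside the blocks was 0.590 (0.0984 to 2.58). Thus 7 of the 12 PHD M880A sites at Bahcc1 (58.3%, 32.0 to 80.7) lay outside the blocks, against 3 of the 49 PHD WT sites (6.12%, 2.10 to 16.5). At Tnrc18, 1 of 7 and 0 of 36 lay outside. Both libraries helped to set the block bounds, PHD WT with more sites, so these shares are description only. With blocks called without PHD WT, only the upper end of Bahcc1 block 1 changed, to 120050666. Of 1 kb windows with at least 5 sites over the pair, 4 of 4 at Tnrc18 and 4 of 4 at Bahcc1 were at least 2-fold higher in PHD WT, where 93.6% of all 879 such windows were higher and 0.569% lower. No 1 kb window here held more than 3 PHD M880A sites, so each passed the filter only with PHD WT sites. The filter thus favoured this direction, and nothing is read from these window counts.

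The PHD M880A sites at the loci can be given one by one. At Tnrc18, those in block 1 were at 143575384, 143576070, 143576174, 143576634 and 143578537, with 5, 2, 13, 2 and 18 reads. The site in block 2 was at 143582299 with 25 reads, and the site outside was at 143565819 with 101 reads. The low numbers thus stood in block 1, where each of the 5 sites lay within 33 bp of a site of another library. At Bahcc1, block 1 held 120048427, 120049300, 120049952 and 120049960, with 4, 70, 12 and 70 reads. The site in block 2, at 120091193, had 2 reads and lay at the block's lower edge. The 7 sites outside had 4 to 148 reads, and 6 of them lay over 1 kb from any site of another library. Among sites with at least 10 reads, the ratio of PHD WT to PHD M880A was 9.74 (3.39 to 38.3) at the Tnrc18 locus and 16.6 (4.10 to 145) in its block 1. PHD WT and PHD M880A shared a flow cell, and 1 position, 143576070 on the minus strand, was listed in both.

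The full-length fusions were compared in the same way. At Tnrc18 the ratio of Full WT to Full M880A was 1.24 (0.764 to 2.00), and at Bahcc1 1.34 (0.867 to 2.07). No difference was detectable at this depth, and the intervals hold up to 2.00-fold and 2.07-fold higher levels in Full WT. With 0.5 added to each count, the loci stood at 1.25 and 1.35. The median ratios over windows of the same lengths were 1.48 and 1.48. Of the windows, 59.6% and 53.1% had a higher ratio than these loci. At least 2-fold higher were 31.0% of 1236 and 30.3% of 1338 windows, and at least 2-fold lower 4.85% and 5.01%. The 4 blocks had ratios between 1.27 and 1.58, each with an interval that held 1. In Bahcc1 block 2 there were 19 Full WT and 21 Full M880A sites (1.58, 0.804 to 3.09), and in Tnrc18 block 2 there were 11 and 15 (1.28, 0.532 to 2.99). Of the 7 Tnrc18 windows of 1 kb in which the pair had 5 or more sites, 2 were at least 2-fold higher and 1 lower in Full WT, and of 6 at Bahcc1, 2 and 0, where 54.5% of all 660 such windows were higher and 5.30% lower.

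The ratio of WT to M880A for PHD was 5.60 times that for Full at Tnrc18 (2.11 to 16.8) and 4.13 times at Bahcc1 (1.87 to 9.71). Of the windows of these lengths with at least 40 sites over the 4 libraries, 18.5% of 265 and 20.8% of 284 had such an interval above 1, and 82.6% and 82.7% had an estimate above 1. The loci had been chosen by the counts used here, and nothing is read from their place among these windows.

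The wild-type fusions of both lengths were then set side by side, to ask whether the isolated PHD domain marked the same stretches as full-length TAF3. The ratio of Full WT to PHD WT was 1.00 (0.603 to 1.66) at Tnrc18 and 0.921 (0.591 to 1.43) at Bahcc1. The medians over windows of those lengths, with 0.5 added to each count, were 0.809 and 0.827. At least 2-fold higher in Full WT were 5.68% and 5.24% of windows, and at least 2-fold lower 18.9% and 19.1%. The near-equal totals at Tnrc18 were split between the blocks in different ways. Of the sites in its 2 blocks, 88.9% of PHD WT (32 of 36, 74.7 to 95.6) were in block 1, against 62.1% of Full WT (18 of 29, 44.0 to 77.3) and 61.5% of Full M880A (24 of 39, 45.9 to 75.1). The odds of block 1 over block 2 were 4.76 times higher in PHD WT than in Full WT (1.19 to 23.6) and 4.89 times higher than in Full M880A (1.33 to 22.9), by exact conditional intervals. PHD M880A had 5 of 6 sites in block 1, and its interval of the odds held 1 against every other library.

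These 2 were the only intervals to exclude 1 among 12 such comparisons of libraries (6 at each locus), which were chosen after the positions had been seen and are not adjusted for their number. Both held 1 among sites with at least 10 reads, at 4.17 (0.928 to 22.6) and 3.02 (0.626 to 16.9). At Bahcc1, block 1 held 37.0% (17 of 46) of the PHD WT, 45.7% (16 of 35) of the Full WT and 51.2% (22 of 43) of the Full M880A sites in the blocks, and the intervals of the odds held 1. Tnrc18 block 2 itself had a ratio of Full WT to PHD WT of 3.10 (0.919 to 13.4) and block 1 of 0.634 (0.335 to 1.16). Of 1 kb windows with at least 5 sites over the pair, 1 of 5 at Tnrc18 was at least 2-fold higher in Full WT and 2 were lower, and of 8 at Bahcc1, 2 and 2, where 8.18% of all 1564 such windows were higher and 36.8% lower.

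The M880A fusions of both lengths shared a flow cell. Both helped to set the block bounds, and the loci were chosen by these counts, so the values below are description only. The share of sites in Full M880A was 5.71 times that of PHD M880A at Tnrc18 (2.56 to 15.0) and 3.85 times at Bahcc1 (2.03 to 7.92). With 0.5 added to each count, the loci stood at 5.39 and 3.73. Over windows of those lengths the medians were 1.24 and 1.19, and 3.13% and 5.04% of windows had a higher ratio. At least 2-fold higher were 22.9% of 1372 windows and 20.0% of 1588, and at least 2-fold lower 8.24% and 9.45%. By block, the ratio was 4.26 (1.59 to 14.3) in Tnrc18 block 1, 13.3 (2.05 to 561) in Tnrc18 block 2, 4.88 (1.66 to 19.5) in Bahcc1 block 1 and 18.6 (3.00 to 771) in Bahcc1 block 2. The interval for Tnrc18 block 2 held 1 among sites with at least 10 reads (6.54, 0.840 to 295). Outside the blocks of Bahcc1 the levels were 2.29 and 2.01 per 10000 (ratio 1.14, 0.378 to 3.61). Outside those of Tnrc18 they were 1.53 and 0.287, with 6 and 1 sites (5.33, 0.646 to 245). Of 1 kb windows with at least 5 sites over the pair, 4 of 5 at Tnrc18 and 2 of 3 at Bahcc1 were at least 2-fold higher in Full M880A and 0 lower, where 67.5% of all 191 such windows were higher and 6.81% lower. With at most 3 PHD M880A sites in a window, each passed the filter only with Full M880A sites, which favoured this direction.

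**Figure D3:**
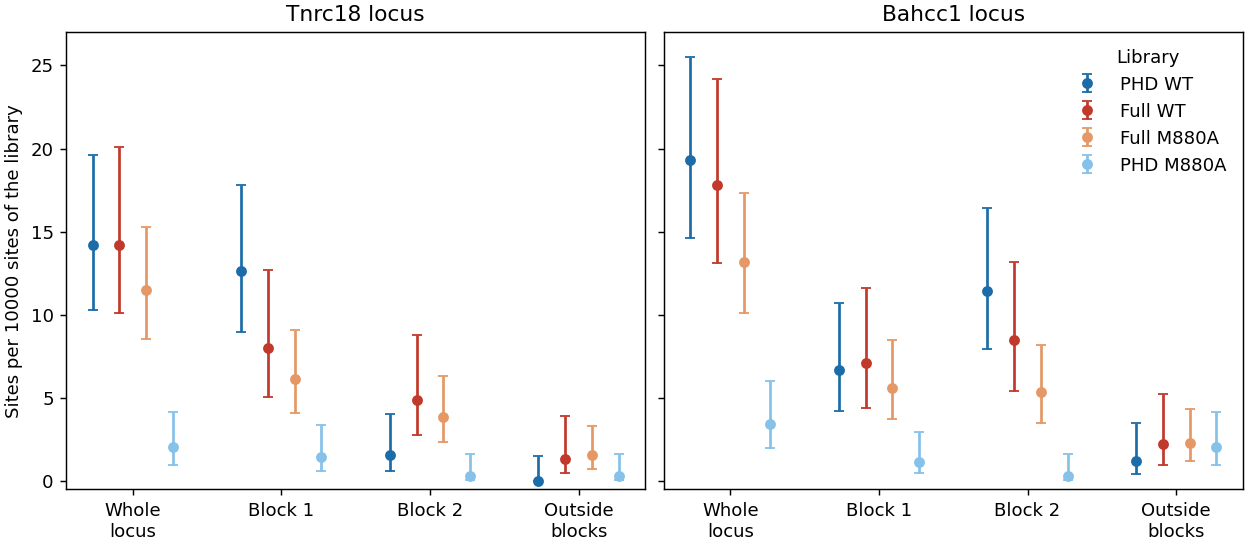
Sites per 10000 sites of the library (vertical axis) for each whole locus, its 2 blocks and the rest of the locus; points are single libraries and bars are 95% Wilson intervals of counting error. PHD M880A is the lowest library in both loci and all 4 blocks, and stands at 2.01 per 10000 outside the Bahcc1 blocks beside 2.29 in Full M880A.

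**Figure D4:**
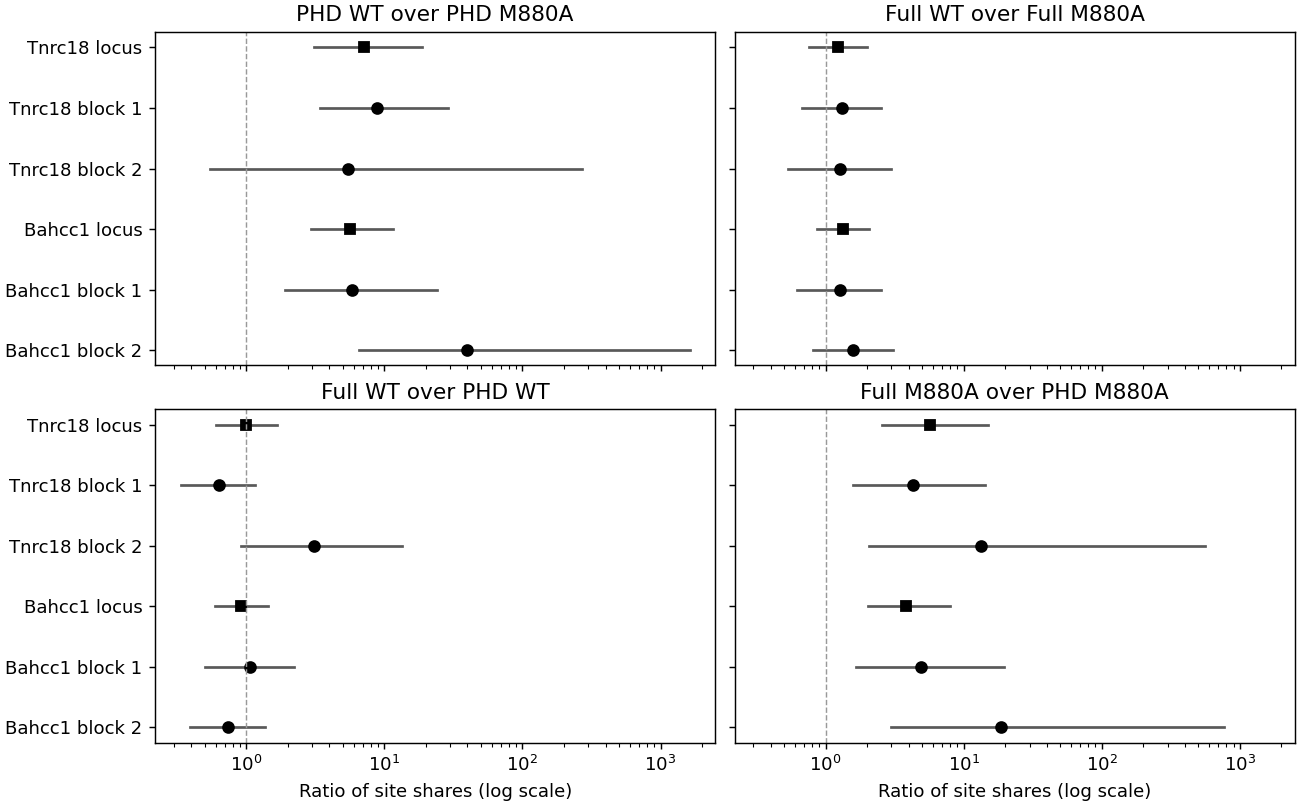
Ratio of site shares (horizontal, log scale) for the 4 comparisons of libraries at each locus (squares) and block (circles), with exact conditional 95% intervals; the dashed line is a ratio of 1. All 6 intervals of Full WT over Full M880A hold 1. Above it lie 5 of 6 for PHD WT over PHD M880A and 6 of 6 for Full M880A over PHD M880A. The loci were chosen by these counts and the blocks lie within them, so these numbers of intervals are description only.

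The 2 loci were like each other over the libraries, and both were chosen by these counts. Several other windows were nearer to Tnrc18 than Bahcc1 was, and a single window was nearer to Bahcc1 than Tnrc18 was. With the shares of the 4 libraries scaled to a sum of 1, PHD WT stood at 0.339 at Tnrc18 and 0.359 at Bahcc1, Full WT at 0.340 and 0.331, Full M880A at 0.273 and 0.246, and PHD M880A at 0.0479 and 0.0640. The sum of absolute differences between them was 0.0728. In the same order of libraries, the medians over the 100 kb windows with at least 40 sites were 0.381, 0.330, 0.186 and 0.0890. Of the 186 such windows outside the loci, the nearest in profile to either locus was chr17:34200001-34300000, at a sum of differences of 0.0429 from Tnrc18 and 0.0346 from Bahcc1. It held 30 sites in PHD WT, 26 in Full WT, 35 in Full M880A and 8 in PHD M880A. The next nearest to Tnrc18 were chr17:35100001-35200000 (0.0577) and chr11:77900001-78000000 (0.0585), and to Bahcc1 chr11:77900001-78000000 (0.0761) and chr2:32700001-32800000 (0.0856). The median distance of all windows was 0.290 from Tnrc18 and 0.244 from Bahcc1. A profile has only 4 points, and the windows were not named by gene.

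Strand, reads and recurrence were not used in the selection. PHD WT had 15 plus and 21 minus sites at Tnrc18 and 18 and 31 at Bahcc1. Full WT had 18 and 14, and 18 and 22. Full M880A had 24 and 21, and 30 and 22. PHD M880A had 2 and 5, and 7 and 5. Reads per site ranged from 2 to 960, with medians at Tnrc18 and Bahcc1 of 44 and 40 in PHD WT (29.0 over the whole list), 55.5 and 33.0 in Full WT (41.0), 23.0 and 35.0 in Full M880A (24.0) and 13.0 and 19.5 in PHD M880A (23.0). The median distance from a site to the nearest of its own library was 48.5 and 46.0 bp in PHD WT, 145 and 100 bp in Full WT, 105 and 139 bp in Full M880A, and 686 and 8126 bp in PHD M880A. Of the distinct strand and position pairs, 4 of 116 at Tnrc18 and 3 of 150 at Bahcc1 were listed in 2 libraries. None was listed in more. The same share over the whole series is not given here, so nothing is read from these counts.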

How the data were processed

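HIT-seq integration lists of 4 libraries were used. Per the labels' protocols, vector junctions were recovered from sheared DNA (10 μg, fragments near 500 bp) by nested PCR from a linker, and 15 further PCR cycles preceded paired sequencing of 108 nt. The authors deposited 1 BED list of paired-end integration sites per library, per the file headers. The submitters' processing notes name mm9 and MACS 1.4.2, with no role for MACS. Aligner and filters: not given in the sources used here. Scores in the deposited lists are all 0 and were ignored. The number after each read name, at least 2 in every line, was read as the site's number of reads, which rests on its values alone. Reads carry no molecular identifiers and are not independent, so positions were counted in place of reads.

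The junction was the 5′ end of the listed strand, printed 1-based. Repeated junctions of a library were counted as 1, which took out 722 lines in PHD WT, 354 in Full WT, 401 in Full M880A and 472 in PHD M880A. Shares have Wilson intervals, and ratios of shares and of odds have exact conditional intervals. The members, blocks and lists were chosen with earlier results of these data known. The rule for named genes was Tnrc18, Bahcc1 and, given an mm9 annotation, overlapping genes and 9 other BAH-domain genes. Those were not analysed here, since no mm9 annotation was used. Likeness was the sum of absolute differences between library profiles over windows of 100 kb with at least 40 sites. Promoter sequences are from RefSeq, GRCm38.p6, and both genes matched by symbol. The code was tested on simulated data. Calculations used Python 3.11.15, numpy 2.4.6, pandas 2.3.3, scipy 1.17.1 and matplotlib 3.10.9.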

Additional observations from a re-analysis of the deposited data

Results flagged for a closer look

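The difference between WT and M880A was larger for the PHD domain than for full-length TAF3 in 5 places, by the exact conditional interval of the ratio of the 2 ratios. It was 5.60 (2.11 to 16.8) at the Tnrc18 locus, 4.13 (1.87 to 9.71) at the Bahcc1 locus, 6.52 (1.99 to 25.8) in Tnrc18 block 1, 4.46 (1.16 to 21.8) in Bahcc1 block 1 and 24.1 (3.34 to 1078) in Bahcc1 block 2. The last rests on 1 PHD M880A site. Of windows with at least 40 sites, 18.5% of 265 of the Tnrc18 length and 20.8% of 284 of the Bahcc1 length had such an interval above 1. The estimate was above 1 in 82.6% and 82.7% of them. No such share was taken for windows of block length, and the loci were chosen by these counts. In Tnrc18 block 2 the ratio of the 2 ratios was 4.08 (0.341 to 225) with 4, 1, 11 and 15 sites. The intervals are not adjusted for their number, the blocks lie within the loci, and Full WT had a flow cell of its own.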

How the results depend on the processing

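The locus ratios and ratios of ratios with an interval above 1 kept it under every alternative run on them, and those whose interval held 1 still did (at least 10 reads, positions within 10 bp merged, positions shared between libraries left out, the other end as junction, every line counted, and shares of the chromosome). The ratio of Full WT to PHD WT at Tnrc18 lay between 0.836 and 1.05, on both sides of 1. The odds of Tnrc18 block 1 over block 2 in PHD WT lost their interval above 1 with at least 10 reads (4.17 against Full WT and 3.02 against Full M880A) and, against Full WT, with merged positions (4.07, 0.990 to 20.5). They were 6.83 and 4.94 with blocks called without Full WT, and with gaps of at most 2000 bp the Tnrc18 blocks joined, so no value was given. With the focus called on Full WT, the PHD WT focus share was 61.1% at Tnrc18 and 32.7% at Bahcc1, and that of PHD M880A at Bahcc1 33.3%. Full WT had 2 Bahcc1 foci of 16 sites, and these values are for the lower one, in block 1. For the other, PHD WT was at 42.9% and PHD M880A at 0% (0 of 12 sites). With at least 10 reads, the PHD M880A focus share at Tnrc18 was 25.0%, for a focus whose bounds differed from those of the main call. With a minimum of 10 sites per pair, the background of 1 kb windows at least 2-fold higher and lower was 90.5% and 0% (PHD WT against PHD M880A), 45.6% and 0% (Full WT against Full M880A), 4.79% and 26.6% (Full WT against PHD WT) and 25.0% and 25.0% of 4 windows (Full M880A against PHD M880A). Block alternatives and the other Full WT focus were chosen after seeing the data. No paired analysis was possible because each group has 1 library. The 7 and 12 PHD M880A sites limit every comparison with that library.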

Other observations

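Some integration positions lay opposite each other on the 2 strands at the spacing of the 5 bp that HIV integrase duplicates at its target. At Tnrc18, such pairs began at 143575721 (both sites in PHD WT), 143578339 (Full M880A, with the minus-strand site in Full M880A and in PHD WT) and 143581782 (Full WT and Full M880A). At Bahcc1, they began at 120050487 (Full M880A and PHD WT) and 120094828 (Full M880A and Full WT). Of the 7 positions listed in 2 libraries, 3 joined PHD WT with Full WT, 2 joined PHD WT with Full M880A, 1 joined the full-length libraries and 1 joined the PHD libraries. Within Bahcc1 block 2, 846 bp from 120092783 held no site of any library, the widest such gap inside a block.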
